A study of Homo sapiens with 15 samples.

Results

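Of the 721551 splicing events in the deposited table, 4277 are pairs of competing 3′ splice sites (acceptors) that lie exactly 3 nucleotides apart, so that choosing one or the other adds or removes 3 bases at the start of an exon. The 527 pairs described here are those with at least 10 reads in at least 10 of the 15 libraries, in 493 genes. The members were chosen by distance and read number, so neither is a result, and the shares of the acceptors were not used. Of the 527 pairs, 229 had 10 reads in all 15 libraries. The value followed throughout is percent spliced in (PSI), which for these rows is the percent of junction reads that use the upstream acceptor and so make the exon 3 bases longer. At the edge of the read rule, NCAPD3 and SERPINE2 were just inside, with 10 reads or more in 10 libraries and PSI values of 100% and 19.2%, and SEPT9 and NCAPH were just outside, with 9 such libraries and PSI values of 100% and 99.6%.

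The libraries were poly(A) RNA of HEK-293 cells, a human embryonic kidney line. The cells had either been transfected with a pcDNA3Xpress-Gemin5 plasmid using a lipid reagent and harvested after 24 h, or were left untreated, so GEMIN5 expression and transfection cannot be told apart. RNA came from the cytoplasmic lysate (Input) or from fractions 8 to 12 of 12 of a 10 to 50% sucrose gradient, which hold polysomes, messages loaded with several ribosomes. Cycloheximide, which stalls elongating ribosomes, was present in all cells. The groups were Input GEMIN5 (n = 3), Input control (n = 4), Polysome GEMIN5 (n = 4) and Polysome control (n = 4). The series text calls the samples independent biological samples but gives no separation of cultures, and p-values here reflect how these samples vary, which may be partly technical.

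An acceptor ends in AG. The spliceosome recognises it through the pyrimidine tract and the AG, which the U2AF2 and U2AF1 subunits of the U2AF factor bind. In the second step of splicing it joins the upstream exon to an AG found downstream of the branch point. Where an acceptor is followed at once by a second AG, both can be used, and the motif is known as NAGNAG, after the base N before each AG. The products differ by 3 bases, which leaves the reading frame in place and changes the protein by about 1 residue. The base before an AG is known to matter, with C and T stronger than A, and G weakest.

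The 6 bases that hold both AGs could be read for 131 pairs, because some GENCODE v29 transcript (GRCh38) runs through the intron end. The windows below show the classes that the results turn on. The capitals mark the 6 bases at the intron end. The upstream acceptor lies after the 3rd capital and the downstream acceptor after the last. The windows run from 20 bases before the longer exon to 10 bases within it, 5′ to 3′ on the strand given, and they were picked with their values known.
MRPS11 (chr15:88467888-88467917, +): caccgagcttttcttccCAGCAGggtcgtg
DAZAP1 (chr19:1434717-1434746, +): cacaggactttctccccCAGCAGgttacgg
NTHL1 (chr16:2040232-2040261, −): caccccgcttggcctccCAGCAGcagtgga
PRMT5 (chr14:22921047-22921076, −): tcctgtctttcttcttaCAGCAGcccataa
PQBP1 (chrX:48902712-48902741, +): ttgccctgccacttccaCAGCAGtaagccg
PCBP2 (chr12:53468757-53468786, +): tgctctcttctgtctttTAGCAGgtttgga
RANBP1 (chr22:20126932-20126961, +): tgtgctgcttgtgttttTAGCAGgatcagg
DNTTIP1 (chr20:45803310-45803339, +): ctttattctttccttccAAGCAGatggaaa
MTA3 (chr2:42704174-42704203, +): tattttaatttcattgaAAGCAGcaaacca
METTL3 (chr14:21499365-21499394, −): aatctgttatctgtggtGAGCAGgttggtg
NGLY1 (chr3:25736143-25736172, −): tctcttttctcttacttGAGTAGaccatgt
SNF8 (chr17:48931708-48931737, −): cccattcctccttccttCAGAAGaatggct
ATP6AP2 (chrX:40605541-40605570, +): ctttcttttctatattgTAGAAGaacccag
DUS1L (chr17:82060774-82060803, −): agggccttgggcttttgCAGGAGgagatat
PPP1R14A (chr19:38252965-38252994, −): ccctccctccctggcccTAGGAGgcagaca
CYTH2 (chr19:48478046-48478075, +): ccctcccaccccttcccTTTCAGggggccg

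Most pairs were spliced almost wholly at the upstream acceptor. The median over pairs of the mean PSI was 97.9%, and 437 pairs (82.9%) used the upstream acceptor in more than 50% of reads. PSI was 99% or more in 224 pairs and exactly 100% in every library with 10 reads in 117 of them. At the other end, 27 pairs had a PSI of 1% or less and 14 were at 0 in every such library. Both acceptors were in use, with a mean PSI of 10 to 90%, in 134 pairs, of which 91 leaned to the upstream acceptor and 43 to the downstream one. A near-even split of 40 to 60% was seen in 29 pairs. The median pair had 33 reads per library (range over pairs 10 to 8430), and 136 pairs had under 20, so for many pairs a minor acceptor at a few percent was not detectable at this depth.

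PSI differed with the annotation of the acceptors. GENCODE transcripts with the same donor carry only the upstream acceptor in 299 pairs, with a median PSI of 99.8%, both acceptors in 179 pairs, with a median of 73.9%, and only the downstream acceptor in 36 pairs, with a median of 2.37%. Among the pairs with both annotated, 111 had a PSI of 10 to 90%. Of the 299 pairs with only the upstream acceptor annotated for that donor, 12 had a PSI under 90%. These include EEF1D, a subunit of the exchange factor of translation elongation factor 1, at 20.2%, the exonuclease gene EXO1 at 51.2% and the splicing regulator RBM10 at 65.9%. They also include UCKL1 at 70.6% and the respiratory complex I subunit NDUFA3 at 77.3%. These 5 were chosen after their values were seen. RBM10 and EXO1 also have donors 3 bases apart. Those of RBM10 share read numbers with the acceptors and are described with the polysome results. In EXO1 the spliced forms of the donors differ from those of the pair by 2 bases, and the deposited PSI of the donors averaged 100%. Whether the EXO1 rows share reads was not tested.

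**Figure D1:**
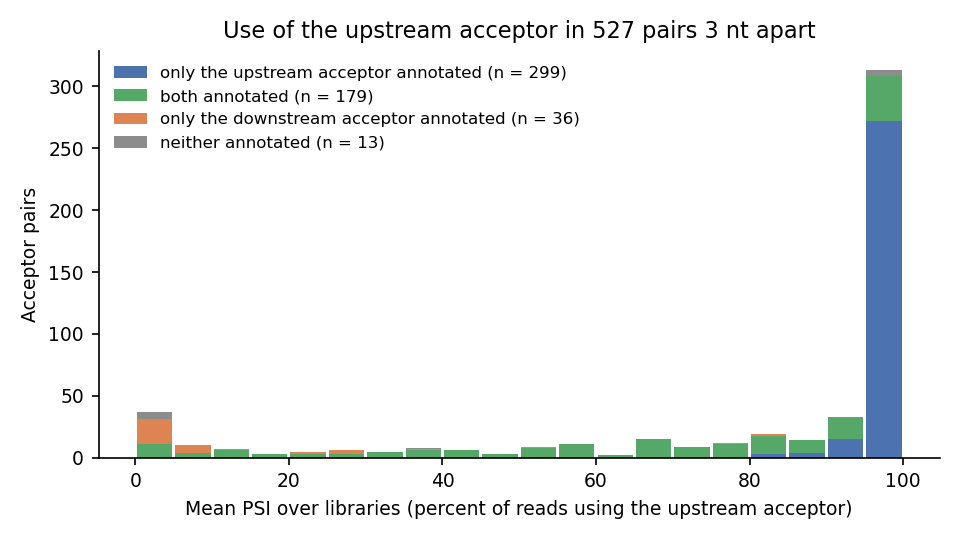
Histogram of mean PSI (percent of reads that use the upstream acceptor, 20 bins) over the 527 pairs, coloured by which acceptors GENCODE annotates for the same donor. The tallest bin lies at the right end and is made mostly of pairs with only the upstream acceptor annotated, and the middle of the axis is filled mostly by the 179 pairs with both annotated.

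The 3 bases between the acceptors, which are the last 3 of the intron when the downstream acceptor is used, were known for 506 pairs, and 504 of them end in AG. With CAG there, the pairs spread over the whole scale. The 183 CAG pairs had a median PSI of 70.9%, and 104 of them (56.8%) lay between 10 and 90%, 52 above 90% and 27 below 10%. The 32 TAG pairs had a median of 80.2%, with 13 between 10 and 90%. With AAG, the median of 127 pairs was 99.2%, 9 lay between 10 and 90%, and the lowest was 38.99%. With GAG, the median of 162 pairs was 100% and 1 pair, in RBM10, lay below 90%. Of the 134 pairs with both acceptors in use, 104 were thus in the CAG class and 13 in the TAG class. These classes hold only pairs whose 3 bases could be read from a GENCODE transcript. In the 21 pairs without known bases, 13 had a PSI below 10%, 7 lay between 10 and 90% and 1 lay above 90%. The classes thus leave out mainly pairs with a low PSI. Which class those pairs belong to is not known, so the AAG and GAG values hold for the pairs read.

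Where all 6 bases were known, PSI was also lower in the classes with A or G before the upstream AG than in those with C or T, where the downstream site was CAG. Among pairs with a downstream CAG, PSI had a median of 59.9% in 32 CAGCAG pairs (2.79 to 99.2%), 67.0% in 11 TAGCAG pairs (0.503 to 96.2%), and 8.90% in 11 AAGCAG pairs (at most 51.7%). The 2 GAGCAG pairs had a median of 0.159%. METTL3, the methyltransferase that writes m6A, is one of them, and its PSI was 0 in every library with 10 reads. With a downstream GAG, medians were near 100% for each upstream base. The 18 CAGGAG pairs had a median of 99.9%, the 14 TAGGAG pairs of 100%, and the 2 AAGGAG pairs and the 1 GAGGAG pair had 99.4% and 99.9%. With a downstream AAG, medians were 98.4% in 20 CAGAAG pairs and 98.7% in 9 TAGAAG pairs. SNF8, a subunit of the ESCRT-II complex, is a CAGAAG pair, with 96.6% (95.7 to 98.0%). NGLY1, the cytosolic N-glycanase, holds the 1 GAGTAG and used the downstream acceptor alone, with a PSI of 0 at a median of 34 reads. These values describe the pairs, and no test of the bases was made.

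**Figure D2:**
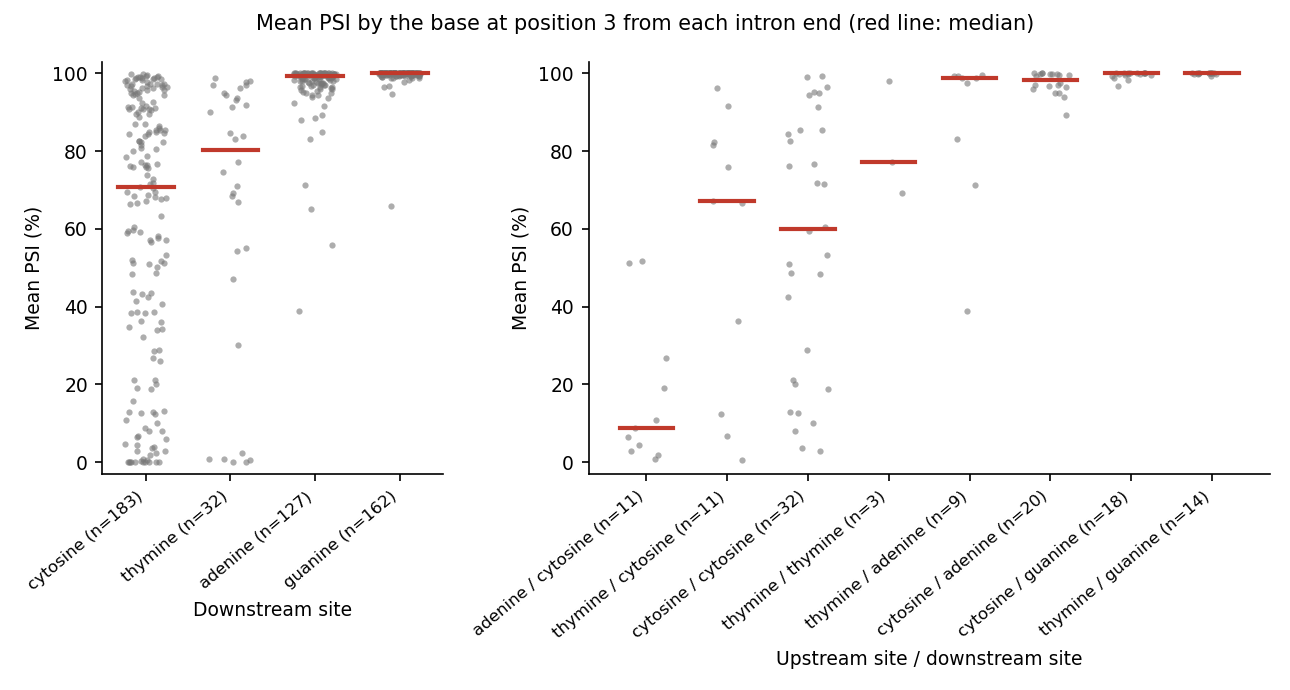
Mean PSI (percent) of each pair as a point, by the base before the AG of the downstream acceptor (left, 504 pairs) and of the upstream and the downstream acceptor together (right, classes of at least 3 pairs), with the class median as a red line. Cytosine and thymine at the downstream site span nearly the whole axis, and adenine and guanine there sit near 100%, with the exceptions named in the text. Pairs without known bases, most of them with a low PSI, are not shown.

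Pairs with the same 6 bases also had unlike values. In the AAGCAG class, DNTTIP1, a subunit of a histone deacetylase complex, had 2.91% (0 to 9.20% over libraries) and MTA3, a subunit of the NuRD chromatin complex, had 51.1% (37.9 to 70.8%). In the CAGCAG class, the DNA glycosylase gene NTHL1 had 2.79% (0.40 to 5.14%) and the arginine methyltransferase gene PRMT5 had 98.9% (97.4 to 100%). The mitochondrial ribosomal gene MRPS11 lay between them at 71.8% (64.9 to 76.9%). In the TAGCAG class, PCBP2, a poly(C)-binding protein, had 81.5% (76.4 to 84.9%), whereas RANBP1, a partner of the Ran GTPase, had 0.503% (0.05 to 1.29%) at a median of 1856 reads. Neither of the RANBP1 acceptors is annotated for that donor. The base just before the first CAG differed too. In 7 CAGCAG pairs with A or G there, such as PRMT5 and the polyglutamine-binding protein gene PQBP1 (94.4%), the median was 95.1% (82.6 to 99.2%). In 24 pairs with C or T there, such as NTHL1 and MRPS11, it was 49.9% (2.79 to 91.3%). That split was made after the values were seen.

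The base after the acceptors was also unevenly spread. Among the pairs with a downstream CAG, the median PSI was 51.5% in 50 pairs with an A next, 59.7% in 71 with a G, 85.4% in 35 with a C and 91.3% in 27 with a T. A CAG downstream of the exon start was thus most used, as a class median, before A and G. All 4 of these classes reached from below 3% to above 98%.

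An AG is missing at 1 of the sites in 5 pairs with known bases: FDFT1, CYTH2, E2F5, RPS24 and UBE2F. In the ribosomal gene RPS24 the site was nearly unused, at 0.0527% with a median of 2326 reads. FDFT1, which codes for squalene synthase, had 0 in every library, again at an upstream site without an AG. In 3 pairs the site without an AG was used in much of the reads. UBE2F, a NEDD8-conjugating enzyme, had 95.4% (90.2 to 99.25%) at an upstream site that ends in TTG, and neither of its acceptors is annotated for that donor. In E2F5, an E2F transcription factor, the downstream site lacks the AG, and it took nearly all reads, since PSI was 0.289%. CYTH2, an exchange factor for ARF GTPases, had 57.1%, although its upstream site ends in TTT in the window shown. Its intron also holds an annotated exon of 3 bases, at chr19:48477717-48477719, and a spliced message with that exon differs by 1 base from one made with the upstream site. The deposited PSI of that small exon averaged 57.8%. In Input GEMIN5 libraries the pair had 52.3, 58.8 and 63.6% and the exon 57.75, 63.0 and 72.65%, and in Input control libraries the pair had 42.6, 62.5, 57.85 and 55.4% and the exon 41.8, 60.1, 58.8 and 54.0%. The values of both rows were thus close in Input control and up to 9 points apart in Input GEMIN5 libraries. Whether the 2 rows count the same reads was not tested. RPS24 has such an exon as well, at chr10:78037439-78037441, with a PSI of 0.00667%.

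In the coding sequence the share of pairs with both acceptors in use was lower than in untranslated regions. Of 446 pairs in coding sequence, 98 (22.0%) had a PSI of 10 to 90%, against 20 of 37 (54.1%) in 5′ untranslated regions and 7 of 17 (41.2%) in 3′ untranslated regions. The median PSI was 98.7%, 75.9% and 68.3% in these 3 places. By the position of the junction in the codon, the median was 99.4% in 222 pairs where it falls between codons, 97.7% in 153 pairs where it falls after the 1st base and 96.4% in 66 pairs where it falls after the 2nd. The bases in play differed along with this. Of the junctions between codons, 94 had GAG and 59 had CAG at the downstream site, and of those after the 1st base 41 had GAG and 45 had CAG. Their part in the difference in PSI was not tested.

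A TAG between codons would be a stop codon, and it was rare there. Of the coding pairs with TAG, 1 fell between codons, 17 after the 1st base and 7 after the 2nd. The 1 was in SVIP, a small VCP-interacting protein, and its longer form was not seen in any library, with a PSI of 0 at a median of 137 reads. Its junction is shown with those of the pairs described next. The capitals are the 3 bases present in the longer form only, the 12 bases on either side are from the GENCODE transcript, and the coordinates are the first bases of the longer and the shorter exon.
SVIP (chr11:22827874-22827877, −): acgccggacctgTAGgaagagaaaaga
C1orf131 (chr1:231229206-231229209, −): aagaacacaaagCAGgctaatcctagt
RPL22L1 (chr3:170868387-170868390, −): aagatggcgccgCAGaaagacaggaag
MTHFD1L (chr6:150887842-150887845, +): ttgaaaaatcagTAGgtgtcaacctag
RBM10 (chrX:47180212-47180215, +): tccaccatcgtgGAGgcagcccagctg

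The 8 deepest pairs have the most reads behind their values, and several of them lie near 0 or 100%, where the range is bounded. RPL28, a ribosomal protein gene with GAG at the downstream site, had 8430 reads and a PSI of 99.98 to 100%. COX7A2, a cytochrome c oxidase subunit, also GAG, had 1026 reads and 99.84 to 100%. HDDC2, at 743 reads, was at 100% in all 15 libraries. TRAPPC1, a subunit of the TRAPP tethering complex, also GAG, had a mean of 97.7% at 883 reads. RPL22L1, a paralog of the ribosomal protein RPL22, used both acceptors, with 88.7, 85.9 and 87.7% in Input GEMIN5, 83.7, 86.3, 86.9 and 83.2% in Input control, 89.6, 85.1, 88.3 and 85.4% in Polysome GEMIN5, and 85.6, 85.9, 85.2 and 88.0% in Polysome control libraries. MRPL55, a mitochondrial ribosomal gene with the pair in its 5′ untranslated region, had 14.56, 13.01 and 13.34% in Input GEMIN5 against 11.24, 11.01, 10.10 and 12.47% in Input control, and 11.1 to 13.6% in the polysome libraries. Its 2 Input groups did not overlap, and the difference of 2.43 points had a 95% interval of −1.55 to 6.41. That interval comes from a fit without weights for read number, which draws the spread of a pair toward that of other events. The SD of MRPL55 itself was 0.82 points in Input GEMIN5 and 0.98 in Input control. With precision weights, MRPL55 and RPL22L1 were among 4 pairs called in Input (limma, adjusted p under 0.05). RANBP1 and RPS24, at 0.503% and 0.0527%, complete the 8.

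RANBP1 was too close to 0 for the filter of the test. It had 1.25, 1.29 and 1.19% in Input GEMIN5 libraries against 0.44, 0.39, 0.72 and 0.90% in Input control libraries, and 0.05 to 0.33% in all 8 polysome libraries. The 3 groups of values did not overlap.

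Among the pairs nearest an even split with at least 50 reads, RFXANK, DYNC2LI1, MTHFD1L and CYTH2 had group means between 40.1 and 61.2% in all 4 groups. RFXANK, a subunit of the RFX complex that acts on MHC class II promoters, averaged 43.7%, with 39.4, 43.3 and 47.6% in Input GEMIN5 and 43.5, 48.3, 40.4 and 46.6% in Input control libraries. Its polysome libraries had 48, 42.5, 39.9 and 43.7% with GEMIN5 and 41.6, 44.6, 40.07 and 45.5% in the control. The groups overlapped in both fractions. DYNC2LI1, a dynein-2 subunit, averaged 43.6% (31.3 to 55.2%), and MTHFD1L, a mitochondrial folate enzyme, 54.4% (36.8 to 68.0%). CYTH2 averaged 57.1%. C1orf131 averaged 59.7% over all libraries but 38.5% in Input GEMIN5 against 70.1% in Input control, and is described with the comparisons.

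Genes of splicing factors and of RNA helicases held pairs of every kind. SRSF11 had one at 26.8% in its 5′ untranslated region and one at 57.6% in its coding sequence, SRSF10 had 75.9% and SRSF5 91.8%. SF3B2, a component of the U2 particle, had 89.5% and 93.2%, PUF60, which binds the pyrimidine tract, 82.6%, and the helicase DDX54 60.5%. RBM39, with 96.9%, RBM17, with 99.6%, DHX30, a helicase of mitochondrial ribosome assembly, with 99.9%, HNRNPDL, with 99.98%, and DDX46, with 100%, used almost only the upstream acceptor. HNRNPC, with 0.669%, used almost only the downstream one, and neither of its acceptors is annotated for that donor. There was no member in STAT3, IGF1R, GNAS or PAX3 or in the SMN complex, of which GEMIN5 is a part.

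The libraries differed in what they hold, and this bears on every comparison with Input GEMIN5. GEMIN5 itself had 644, 547 and 532 CPM (counts scaled to a common library total) in Input GEMIN5 against 12.1, 14.4, 12.3 and 16.4 CPM in Input control, and 1422, 1391, 1581 and 869 CPM in Polysome GEMIN5 against 5.90, 7.07, 9.71 and 10.4 CPM in Polysome control libraries, so it was higher in every library labelled GEMIN5. Total counts were 17230133 to 18407933 in Input GEMIN5, within a range of 11191417 to 18407933 over all libraries. Yet the number of pairs with 10 reads was 272 to 328 in Input GEMIN5, against 501 to 518 in Input control, 502 to 524 in Polysome GEMIN5 and 498 to 526 in Polysome control libraries. The rule of 10 reads in 10 of the 15 libraries can be met by the other groups without Input GEMIN5. High cover in those groups thus follows in part from how the pairs were chosen. The summed CPM of 6 markers of HEK-293 cells was 13.5 to 19.4 in Input GEMIN5 against 91.2 to 129 in Input control, and 72.6 to 172 in Polysome GEMIN5 against 81.3 to 209 in Polysome control libraries. The summed CPM of 5 liver markers was 1.51 to 2.61 in Input GEMIN5 against 0.612 to 59.6 in Input control, and 0.466 to 1.75 in Polysome GEMIN5 against 50.8 to 88.1 in Polysome control libraries, and that of 4 blood markers reached at most 0.058, 1.42, 0.144 and 6.42 in the same order. All 6 HEK-293 markers were detected in every group, whereas 3 of the 5 liver and 3 of the 4 blood markers were at 0 in all Input GEMIN5 libraries, 2 of each in all Polysome GEMIN5 libraries, and none in the control groups. The part of these differences in the results was not tested, and fewer cells of a type cannot be told apart from less RNA per cell.

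Averaged over pairs, PSI was close in the 4 groups. The mean PSI of the 229 pairs covered in all libraries was 78.0 ± 0.29% in Input GEMIN5 (SD, n = 3), 78.2 ± 0.29% in Input control (n = 4), 78.3 ± 0.27% in Polysome GEMIN5 (n = 4) and 78.6 ± 0.21% in Polysome control (n = 4). The libraries ran from 77.7 to 78.3% in Input GEMIN5 and from 78.4 to 78.8% in Polysome control, which did not overlap, and the ranges of every other 2 groups did. For single pairs with a PSI of 10 to 90%, the median SD between replicates was 5.65, 6.04, 5.68 and 6.37 points in these groups. The ratio of this variance to that of counting reads alone had a mean over pairs of 1.34, 1.28, 1.39 and 1.37. Its median over pairs was 1.08, 1.06, 1.07 and 1.22 in the same order.

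**Figure D3:**
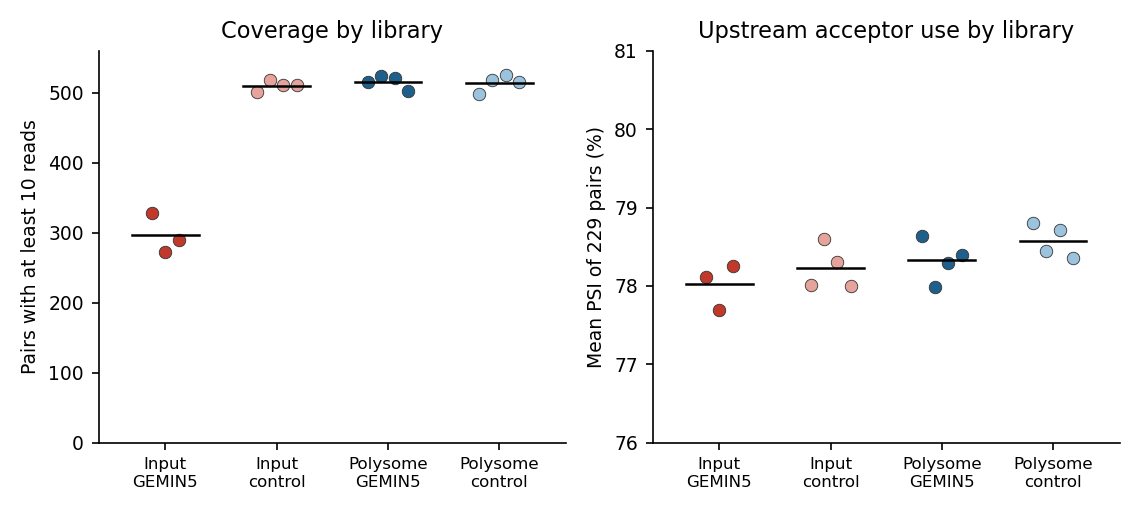
Number of pairs with at least 10 reads (left) and mean PSI of the 229 pairs covered in all libraries, in percent on an axis from 76 to 81 (right), with 1 point per library and the group mean as a line. The 3 Input GEMIN5 libraries cover 272 to 328 pairs, fewer than every other library, and the read rule can be met without them. The mean PSI of all 15 libraries lies between 77.7 and 78.8%.

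The series asks how a raised level of GEMIN5 bears on splicing and on what reaches polysomes. GEMIN5 against control in Input gave 1 member called at an adjusted p under 0.05 among 112 tested, with limma on the log2 odds of the 2 acceptors, while 4.29% of all events tested were called. Among other alternative 3′ splice sites with 2 choices, 12 of 460 were called. At an unadjusted p under 0.05 there were 10 members, against 2822 of the 11928 events. The median difference of the 112 pairs was −0.30 PSI points, against −0.63 in the 460 other pairs and −0.98 in all events, and the median size of a difference was 2.69 points. Of the 234 pairs with 10 reads in all 7 libraries, 12 had groups that did not overlap (5.13%, against 4.13% of all such events), and 1 was past a difference of 15 points with a gap of 5 (0.502% of all events). The 112 tested pairs passed the filter on PSI, whereas the 234 also hold pairs near 0 or 100%. Group means were equal in 59 of the 234 pairs and in 42845 of the 78949 events, and such events cannot have groups apart. The 2 shares are thus not like for like, and those in the other comparisons below have the same limit.

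The pair called was in C1orf131, where CAG falls between codons and the longer form carries 1 more codon. Its PSI was 47.1, 23.1 and 45.5% in the Input GEMIN5 libraries, against 70.6, 68.8, 72.8 and 68.4% in the Input control libraries. All 3 lay below all 4, a gap of over 20 points. The difference was −31.6 points (95% interval −45.6 to −17.6), and the log2 odds differed by −1.88 ± 0.38 (SE; limma, adjusted p = 0.0356). The Input GEMIN5 values rest on 17, 13 and 22 reads, whereas the control values rest on 68 to 96. In polysomes the pair had 71.9, 62.5, 62.9 and 51.0% with GEMIN5 against 73.8, 52.5, 66.7 and 58.3% in the control, which overlapped. The difference between the effects in the 2 fractions had an adjusted p of 0.102 with limma. The mRNA of the gene fell by 0.68 on the log2 scale in Input GEMIN5 (edgeR's quasi-likelihood test, adjusted p = 7.16e-05). The call was lost when any 1 Input library other than Input GEMIN5 replicate 1 was left out, with an adjusted p of 0.0624 to 0.0819, and C1orf131 has too few reads in Input GEMIN5 for a minimum of 20.

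The next in size among pairs whose Input groups did not overlap did not pass the test. WDR45, an autophagy gene, had 10.22, 12.14 and 13.95% in Input GEMIN5 libraries against 21.5, 33.8, 15.2 and 25.4% in Input control libraries (difference −11.9 points, limma adjusted p = 0.123). The DAZAP1 pair at chr19:1421148-1421151, another than the one shown above, had 84.3, 90.7 and 87.8% in Input GEMIN5 against 81.8, 73.4, 80.9 and 81.1% in Input control libraries (8.31 points, limma adjusted p = 0.248). Precision was the same order as these gaps: the median half-width of the 95% interval was 8.37 points over the 112 pairs, and it was 10 points or less for 72 of them. Of the 89 pairs with at least 50 reads in every Input library, 0 differed by 10 points or more.

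**Figure D4:**
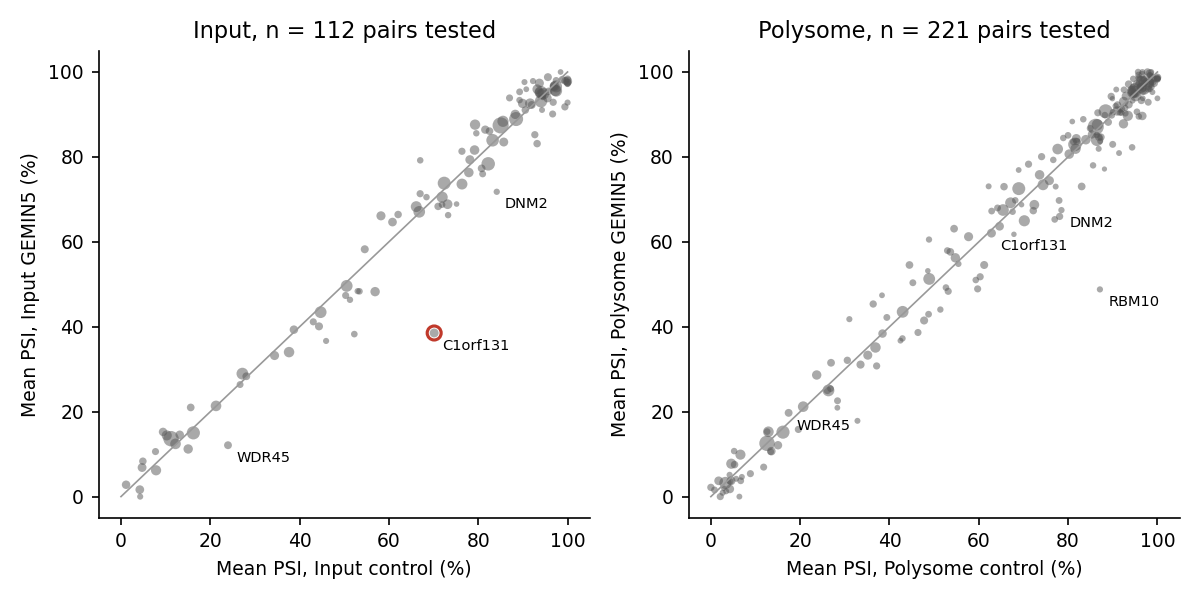
Group mean PSI (percent) of each pair tested, GEMIN5 on the vertical axis and control on the horizontal axis, in Input (left, 112 pairs) and in polysomes (right, 221 pairs), with larger points for more reads and a line of equal values. The circled point is C1orf131, the 1 pair called, and in polysomes the point farthest from the line is RBM10, which was not called.

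In polysomes, GEMIN5 against control gave no called member among 221 tested, and 0.0% of all events were called (0 of 17490 with limma, 859 at an unadjusted p under 0.05). At that unadjusted p there were 4 members. The median difference was −0.19 points against −0.24 in the 613 other 2-choice acceptors. Of 456 pairs covered in all 8 libraries, 5 had groups that did not overlap (0.581% of all events did). The median half-width of the interval was 7.75 points, and 159 of the 221 pairs had one of 10 points or less. Among the 132 with at least 50 reads throughout, 0 differed by 10 points or more.

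RBM10 was the one pair past a difference of 15 points with a gap of 5 (0.0135% of all events). It had 68.0, 30.4, 63.2 and 33.7% in Polysome GEMIN5 libraries, on 17 to 41 reads, against 79.4, 100, 90.6 and 78.5% in Polysome control libraries, on 13 to 39. The log2 odds differed by −2.92 ± 0.72 (SE; limma, adjusted p = 0.783). The Input control libraries, at 64.8, 44.7, 84.1 and 53.5%, overlapped both of these groups, and the Input GEMIN5 libraries had at most 2 reads. The preceding exon of RBM10 has 2 donors 3 bases apart, whose spliced forms differ from those of this pair by 1 base, and the deposited rows of both share the same read numbers in all but 1 library. The PSI of the longer donor was 46.7, 81.01, 55.8 and 83.4% in Polysome GEMIN5, against 38.2, 32.0, 33.8 and 35.4% in Polysome control libraries. From the deposited read numbers, the use of the donors cannot be told apart from that of the acceptors. The reads themselves were not examined. DNM2, dynamin 2, at 70.4, 58.3, 70.6 and 70.6% in Polysome GEMIN5 against 72.7, 80.0, 84.6 and 76.7% in Polysome control, and DYM, at 80.0, 80.0, 78.6 and 70.0% against 86.7, 88.4, 87.5 and 90% in the same groups, differed by −11.03 and −10.99 points with no overlap (limma, adjusted p = 0.963 for both). Both rest on 10 to 39 reads.

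Polysome RNA against Input RNA asks whether either product is more often on several ribosomes. In control cells there was no called member among 205 tested (0.0186% of all events were called, 3 of 16112 with limma, and 1352 had an unadjusted p under 0.05, 11 members among them). The median difference was −0.08 points. Of 441 covered pairs, 9 had groups that did not overlap (0.957% of all events), and 0 were past the 15-point rule (0.0486%). The largest of these were DAXX, a histone H3.3 chaperone, and CAST, the calpain inhibitor calpastatin. DAXX had 59.3, 70.9, 53.9 and 72.7% in Polysome control against 35.6, 53.0, 43.2 and 52.5% in Input control libraries (18.1 points, limma adjusted p = 0.491). CAST had 100, 80.5, 88.1 and 91.4% in Polysome control against 75.6, 73.6, 74.8 and 73.7% in Input control libraries (15.6 points, limma adjusted p = 0.460). Neither had 10 reads in any Input GEMIN5 library.

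In GEMIN5 cells, polysomes against Input gave 1 called member among 118 tested, when 5.0% of all events were called, and 10 of 443 of the other 2-choice acceptors. At an unadjusted p under 0.05 there were 8 members, against 2861 of the 11945 events. The median difference was 0.08 points, and 9 of 236 covered pairs did not overlap (4.41% of all events), with 2 past the 15-point rule (0.565%). The pair called was in EEF1D, on chromosome 8. Its PSI was 28.42, 30.97, 22.14 and 33.03% in Polysome GEMIN5 libraries against 12.97, 10.50 and 10.18% in Input GEMIN5 libraries. The 2 groups were 9 points apart at the nearest, with 57 to 126 reads. The difference was 17.4 points (95% interval 9.96 to 24.9), and the log2 odds rose by 1.59 ± 0.31 (SE; limma, adjusted p = 0.0297). The same order was seen in control cells, with 27.9, 26.9, 18.6 and 21.4% in Polysome control against 13.3, 14.7, 14.9 and 17.3% in Input control libraries. Those groups did not overlap either, and the difference of 8.66 points had a 95% interval of 2.54 to 14.8 (limma, adjusted p = 0.526). EEF1D was thus lower in all 7 Input libraries than in all 8 polysome libraries. The call in GEMIN5 cells was lost when any 1 library other than Polysome GEMIN5 replicate 3 was left out, with an adjusted p of 0.0572 to 0.0875.

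LINC00623, a long non-coding RNA, was the other pair past the 15-point rule in this contrast, with 85.6, 82.6, 80.8 and 91.7% in Polysome GEMIN5 against 59.4, 71.7 and 67.7% in Input GEMIN5 libraries. The difference of 18.9 points had a limma adjusted p of 0.0754. C1orf131 was 23.5 points higher in Polysome GEMIN5 than in Input GEMIN5 libraries, which are the same Input libraries as above, with no overlap. That difference did not pass the test (limma, adjusted p = 0.107).

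The test of whether the effect of GEMIN5 differed between the 2 fractions covered 117 pairs and called none, against 1.94% of all events and 8 of 478 other 2-choice acceptors (limma). At an unadjusted p under 0.05 there were 9 members, against 2148 of the 12696 events.

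**Figure D5:**
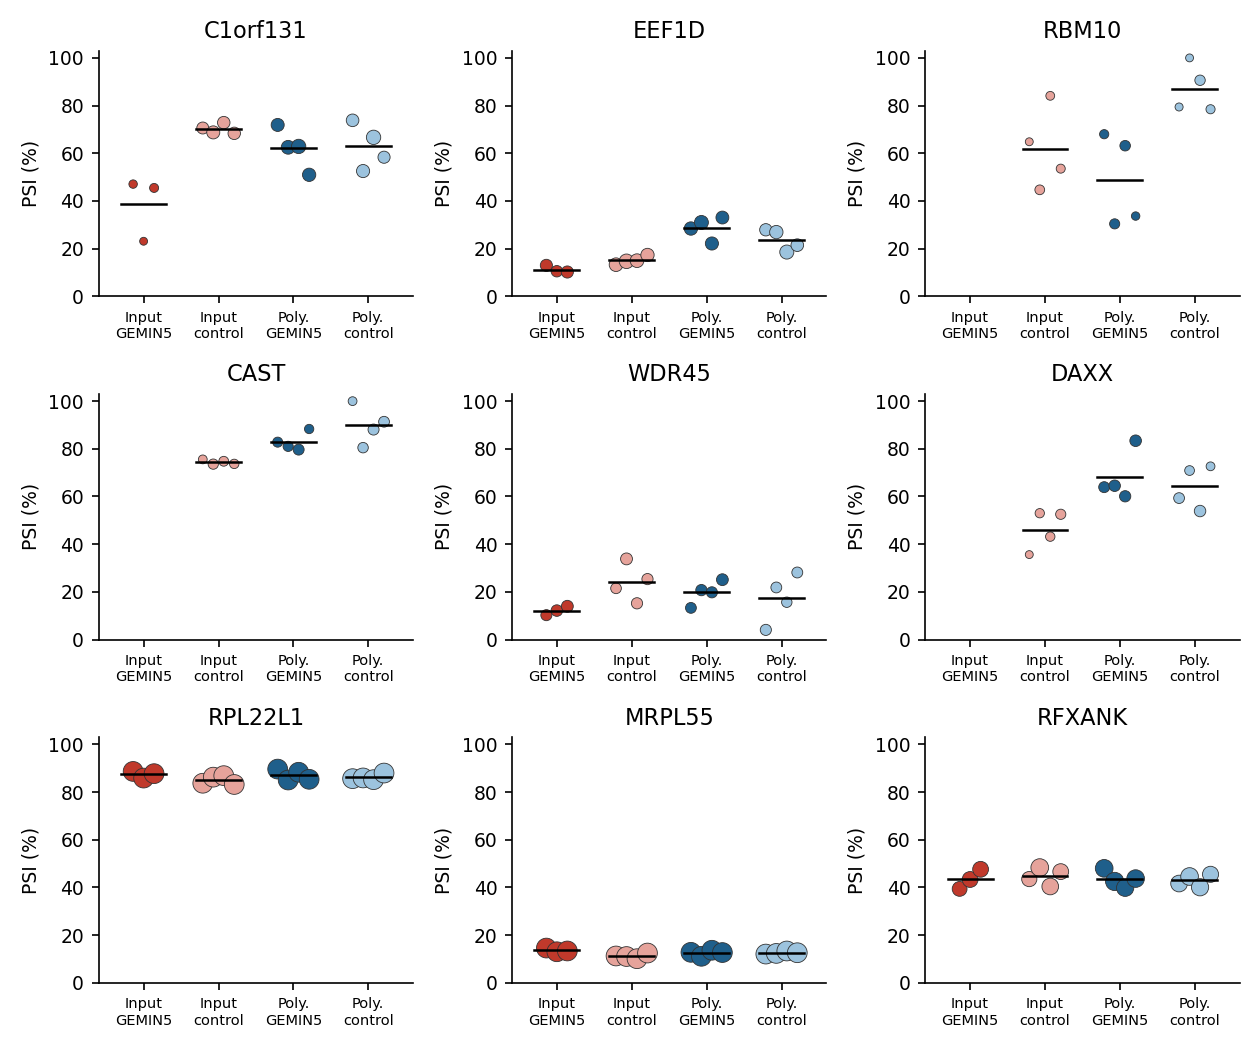
PSI (percent) of 9 named pairs in each library with at least 10 reads, with larger points for more reads and the group mean as a line. C1orf131 is low in the 3 Input GEMIN5 libraries, and EEF1D is higher in all 8 polysome libraries than in all 7 Input libraries. RPL22L1, MRPL55 and RFXANK, with more reads, have group means within a few points of each other in all 4 groups. The Input groups of MRPL55 did not overlap.

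Of 26 genes known to act at 3′ splice sites, 24 could be tested for mRNA level. In Input GEMIN5 against Input control, 1 rose and 12 fell (edgeR's quasi-likelihood test, adjusted p under 0.05), where 27.1% of all genes were higher and 24.4% lower. SF3B6, the U2 protein at the branch point, rose by 1.12 ± 0.14 (log2, SE). DEK, which takes part in AG recognition, fell by 1.87 ± 0.18, HNRNPA1, which binds beside acceptors, by 1.68 ± 0.24, and SLU7, a factor of the second step, by 1.63 ± 0.21. U2AF2 fell by 1.37 ± 0.16, and U2AF1 had a log2 difference of −0.15 ± 0.13 that did not pass. With library size alone as the scale, the median of all genes was −1.29, against −0.01 with TMM, and SF3B6 was at −0.18. In polysomes none of the 24 was called (0.484% of all genes were). Of 464 host genes of the pairs tested, 122 were higher and 179 lower in Input (edgeR, adjusted p under 0.05). Of all genes, 27.1% were higher and 24.4% lower. The read rule can be met without Input GEMIN5, so host genes low there could enter through the other groups. These counts thus follow in part from how the pairs were chosen. In polysomes 0 of the 464 were called (edgeR, adjusted p under 0.05).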

How the data were processed

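The authors deposited PSI as a percent per event and library. Per the file headers the table follows the vast-tools layout for hg38, with a quality column (unit other, a text field) that holds the corrected inclusion and exclusion read numbers. The deposited gene table holds raw whole-number counts. The submitters' processing notes name STAR 2.7.10a, featureCounts and GRCh38/hg38. Strand handling, counting settings and the version of the splicing tool: not given in the sources used here. Since the labels mention no molecular identifiers, read numbers may hold copies of 1 molecule.

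PSI of the upstream row was checked against coordinates and strand, and differed from the share of inclusion reads by at most 0.05 points over 7049 values. Events of all types with 10 reads in every library compared, where PSI reached 5 or more in some library and 95 or less in some library, were tested with limma 3.58.1 (trend, robust; R 4.3.3). The test used log2 odds after adding 0.5 to both read numbers, with 1 Benjamini-Hochberg adjustment over all events and calls at an adjusted p under 0.05. Intervals in PSI points come from the same model fitted to PSI itself. Only the groups compared entered a fit, except the difference between effects (15 libraries). Genes were tested with edgeR 4.0.16 (quasi-likelihood, filterByExpr, TMM, all libraries in 1 fit). Depth was 11191417 to 18407933 counts per library. Scripts were tested on simulated data.

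Pairs were named by rule: members called, otherwise the 3 largest differences without overlap, the 8 with most reads, the 6 nearest 50%, members in genes of splicing factors and RNA helicases, and the 2 events on each side of the read rule. Some members that the rule names are not reported here. The members and lists were chosen with earlier results of these data known. Sequences were read from GENCODE v29 transcripts. Samples were grouped by their titles. The PSI deviations of same-numbered samples were nearly uncorrelated (−0.024 to 0.052), and no replicate block was used. Much of the PSI spread is read counting, so this correlation may miss a pairing, and it was taken over splicing events only. Alternatives were other read minimums and added numbers, no PSI filter, precision weights, a narrower adjustment, 1 fit over all libraries, a replicate block, each library left out, and for genes other scalings, no filter and DESeq2 1.42.0.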

Additional observations from a re-analysis of the deposited data

Results flagged for a closer look

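Among groups of 4 libraries, 11 of 104 tested had a library far from the other 3. Chance gives about 1 in 20 for values without ties. That rate need not hold where the other 3 libraries tie at 0 or 100%, as in several of these flags, so the count does not show an excess. DAZAP1 (the pair at chr19:1421148-1421151) had 73.35% in Input control replicate 2, against 80.9 to 81.8% in the other 3, and MTHFD1L had 46.41% in Polysome control replicate 3, against 57.1 to 58.0%. DNM2 had 58.33% in Polysome GEMIN5 replicate 2, on 24 reads, against 70.4 to 70.6%. HNRNPC had 8.70% in Polysome GEMIN5 replicate 4, on 23 reads, where the other 3 were at 0, and DYM had 70.0% in the same library, on 10 reads, against 78.6 to 80.0%. DDX54 had 60.48% in Input control replicate 4, against 57.2 to 57.7%. In 5 cases the library lay within 2 points of the rest: COX7A2 had 99.84% in 1 Input control and 99.93% in 1 Polysome GEMIN5 library, DHX30 98.31% and HNRNPDL 99.68% in 1 Polysome control library each, and RBM17 98.01% in 1 Polysome GEMIN5 library.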

How the results depend on the processing

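Of the count and median alternatives, 141 stayed close to the value reported and 60 moved. In Input, the 1 member called became 0 when adjusted over alternative 3′ splice sites only, 0 at 20 reads, 0 at 50 reads, 2 with 1 added to each read number, 4 with precision weights (C1orf131, MRPL55, RPL22L1 and WDR45), 2 with all 15 libraries in 1 fit (C1orf131 and HEMK1) and 0 to 1 with a library left out. With no filter on PSI it was 47, of which 38 differed by under 1 point and 31 had equal PSI in both groups. Without that filter, 2 were called between the fractions in control cells, 52 in GEMIN5 cells and 29 for the difference between effects. In GEMIN5 cells the 1 fraction call became 4 with 1 added, 5 with all 15 libraries and 0 to 1 with a library left out. The difference between effects gave 1 (SCO1) with 1 added and 0 to 1 with a library left out (HEMK1, without Input GEMIN5 replicate 1). With a replicate block by sample number, both single calls became 0, and whether the numbers pair the samples is not known. The size rule gave 0, 0, 2 and 1 to 4 pairs in Input (20 reads, 50 reads, 10 points, a library left out; 4 without Input GEMIN5 replicate 3, 2 without replicate 2), 0, 0, 3 and 1 to 2 in polysomes (2 without Polysome control replicate 1 or 4), 2 at 10 points and 0 to 2 with a library left out between fractions in control cells, and 1, 1 and 2 to 3 (20 reads, 50 reads, a library left out) in GEMIN5 cells. The median difference in Input was 0.288 points at 20 reads, 0.215 at 50 and −0.775 to 0.127 with a library left out. In polysomes it was 0.249, 0.085 and −0.312 to −0.0695 under the same settings. Between fractions it was −0.113 to 0.157 in control cells with a library left out, and in GEMIN5 cells −0.379 at 20 reads and −0.582 to 0.350 with a library left out, so these medians have no stable sign. With 10 reads required in all libraries, 64 of 229 pairs (27.9%) used both acceptors and 186 (81.2%) mainly the upstream one, and 288 of 349 (82.5%) did so at 20 reads. The factor genes called in Input were 23 with library size alone, when SF3B6 turned to −0.179, and 13 to 17 with a library left out (17 without Input GEMIN5 replicate 2). In polysomes the count was 0 to 1 (HNRNPA1, without Polysome control replicate 1). Reads per pair limit the Input GEMIN5 comparisons most: its libraries had a median of 10 to 13 reads per pair, against 28 to 50 in the other 12. Summed over the pairs, Input GEMIN5 libraries held 54748 to 57004 reads, within the 45726 to 67554 of the others, so their reads were spread less evenly over pairs. The cause of these changes was not tested.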
